A study of Mus musculus with 18 samples.

Results

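The comparison described here is the difference between genotypes in the net 3 h response to the phorbol ester TPA, (knockout 3 h minus knockout 0 h) minus (wild type 3 h minus wild type 0 h), in mouse embryonic fibroblasts with and without the ERK phosphatase gene Dusp5. It uses 12 of the 18 Illumina arrays of the series, 3 in each of 4 groups, and was computed for 10902 genes. A positive value means that the knockout ended higher relative to its own starting level than the wild type did. The other 6 arrays, taken at 1 h, entered the normalization, the detection filter, the choice of probe and the estimate of array-to-array spread. They are also shown for timing.

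The cells were primary fibroblasts of male C57BL/6 embryos at day 13.5, derived from littermates, and were either wild type or Dusp5 knockout. The groups were untreated wild type, untreated knockout, wild type after 3 h of TPA and knockout after 3 h of TPA. TPA was given at 100 ng/ml to both genotypes. No group received solvent alone, so each response also holds any effect of solvent, handling or time. The labels do not say whether arrays of a group came from separate cultures or embryos, and the p-values therefore reflect spread among these samples that may be technical.

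TPA mimics diacylglycerol and switches on protein kinase C, which feeds into the Ras, Raf, MEK and ERK cascade. ERK then drives a wave of immediate early genes, among them the Fos and Egr transcription factors, which peaks quickly and decays, followed by delayed genes for cytokines and proteases. Dusp5 is itself an ERK-induced gene, and its product removes phosphate from ERK in the nucleus and holds it there, so it belongs to the negative feedback that follows ERK activation.

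Between 16705 and 18348 probes were detected on each of these 12 arrays, with untreated wild type at 17889 to 18348 and untreated knockout at 17308 to 17489. The correlation of log2 levels was 0.991 to 0.996 between arrays in a group and 0.972 to 0.995 across groups. Of 14 fibroblast markers 12 were detected on all 12 arrays. The male markers Eif2s3y and Kdm5d were detected on all 18 arrays of the series and no Xist probe was. None of the marker lists for 7 other cell types had a member called in the comparison by limma, and 2 higher and 2 lower of their 50 tested entries had an unadjusted p under 0.05. The summed level of the epithelial and keratinocyte markers was 801 to 825 in untreated wild type, 1088 to 1160 in untreated knockout, 857 to 896 in wild type at 3 h and 1211 to 1268 in knockout at 3 h, with Krt5, Krt14 and Epcam below the detection filter. That of cartilage and bone markers was 1085 to 1149, 1241 to 1285, 3395 to 3750 and 4683 to 4814 in the same order. Of the latter list Sox9, a chondrocyte factor, rose by 2.14 in wild type and 2.37 in the knockout, while the cartilage collagen gene Col2a1 gave 0.04 and 0.08. Other members were present: 9 of 12 tested epithelial and keratinocyte markers were detected on all 12 arrays, Krt18 and Krt19 among them. So were 8 of 9 tested macrophage and blood markers, including Csf1r, Lyz2, Cd14 and Tyrobp. Summed over that list, levels on the 12 arrays lay within 842 to 1166. Each remaining list of another cell type had 2 or 3 such members. The part of these cell types in the results was not tested.

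The targeted gene was measured at a log2 level of 9.18, 9.21 and 9.22 in untreated wild type and 8.36, 8.28 and 8.31 in untreated knockout, and at 10.59, 10.71 and 10.49 against 9.87, 9.93 and 10.03 at 3 h. Knockout arrays lay below wild-type arrays at both times, but the probe was detected on all of them. The files do not place this probe inside or outside the deletion, and its lower signal is a partial check of the labels. The Dusp5 signal responded to TPA in both genotypes, and the responses differed by 0.23 ± 0.13 (log2, standard error, 95% interval −0.04 to 0.50, limma adjusted p = 0.575).

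A small set of genes passed the test for a different response. Of 10902 genes, 39 passed a Benjamini-Hochberg adjusted p of 0.05 (0.358%), 30 with a higher net response in the knockout (0.275%) and 9 with a lower one (0.0826%). The difference was at least 1.5-fold for all 39. In these bulk samples fewer responding cells and less RNA per cell cannot be told apart. Fold changes are on the normalized scale with an offset of 16, which understates them for dim genes. An unadjusted p under 0.05 was found for 1091 genes, 499 higher and 592 lower (10% of genes). Of the called genes 76.9% were higher. That share was 64.4% in the deposited normalized values and 100% with median scaling over all probes, which moved the median difference of all genes from −0.02 to 0.19 and left no lower gene called. Each of the 39 genes kept its sign under those scalings.

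**Figure D1:**
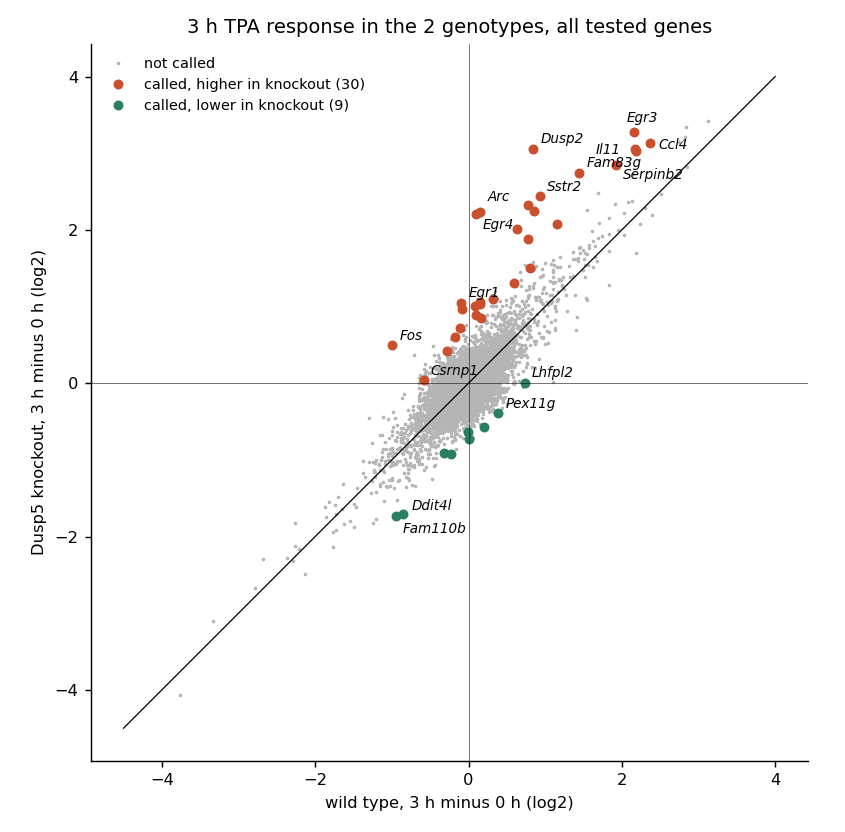
Each point is 1 of 10902 genes, with the 3 h minus 0 h change in wild type on the x axis and in Dusp5 knockout on the y axis, both in log2 units, and the diagonal marks equal responses. The 30 called higher genes (orange) lie above the diagonal, most of them at a positive knockout change, and the 9 called lower genes (green) lie below it.

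The higher genes were mainly genes that TPA raised in the mean of both genotypes. Sorted by this mean response, 26 of the 30 were raised on average, 1 was lowered (Csrnp1) and 3 were neither (Fos, Tmcc3 and Xirp2). A rise in the knockout alone enters both this mean and the difference, so the sort only describes the called genes. Over all tested genes 12% were raised on average and 14% were lowered. Of the 9 lower genes 6 were lowered on average, 1 was raised (Lhfpl2) and 2 were neither (Pex11g and Apol9a). Among all 1303 genes raised on average the median difference was 0.04 and 2.07% were called, and among the 1522 lowered genes it was −0.04 and 0.46% were called. The classes depend on scaling, because median scaling over all probes left 9.36% of the genes with a called mean response as raised, median scaling over the kept probes 56.6% and the main processing 46.1%.

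Within each genotype, the knockout response was called upward in 29 of the 30 higher genes, with Csrnp1 the exception, and the wild-type response in 15, with 13 not called and 2 called downward. Over all genes 8.25% rose in the knockout and 7.81% in wild type. In the 9 lower genes the knockout response was called downward in 8, where 10.1% of all genes were, and the wild-type response in 3, where 8.19% were. The genotypes differed directly at 3 h in 38 of the 39, at 1 h in 10 and before TPA in 1, Serpinb2. The background shares for those contrasts were 4.97%, 2.2% and 1.85%. The exception at 3 h was Ccl4 (adjusted p = 0.0539). Knockout and wild-type arrays did not overlap at 3 h for any of the 39 genes, against 22% of all genes, and did not overlap at 0 h for 15 of them, against 20.4%. The contrasts share arrays with the comparison that chose these genes, so the counts are a description. A 0 h contrast that was not called can still hold part of the difference. In all 9 lower genes the knockout started higher, by 0.06 (Lhfpl2) to 0.38 (Pex11g). The untreated knockout enters the difference with a minus sign, so choosing lower genes favours a higher start. The share over all genes was not counted. In the higher genes the 0 h value went either way, as in Rassf8 (−0.38) and Csrnp1 (0.315, limma adjusted p = 0.0514).

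The higher genes differed in timing. Of the 30, 16 had also risen at 1 h in both genotypes (Serpinb2, Fos, Egr1, Dusp2, Egr4, Arc, Fam83g, Egr3, Fosb, Gdnf, Foxq1, Il11, Srxn1, Ccl4, Plau and Csrnp1), 4 had risen at 1 h only by the test in the knockout (Slpi, Il1a, Ptpn22 and Tmcc3), and 10 had not changed by the test at 1 h in either. A called rise at 1 h was found for 1.88% of genes in wild type and 2.56% in the knockout. The difference between the 1 h responses was called for 3 genes of 10902 (0.0275%), 2 of them among the 39, Dusp2 and Egr4.

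**Figure D2:**
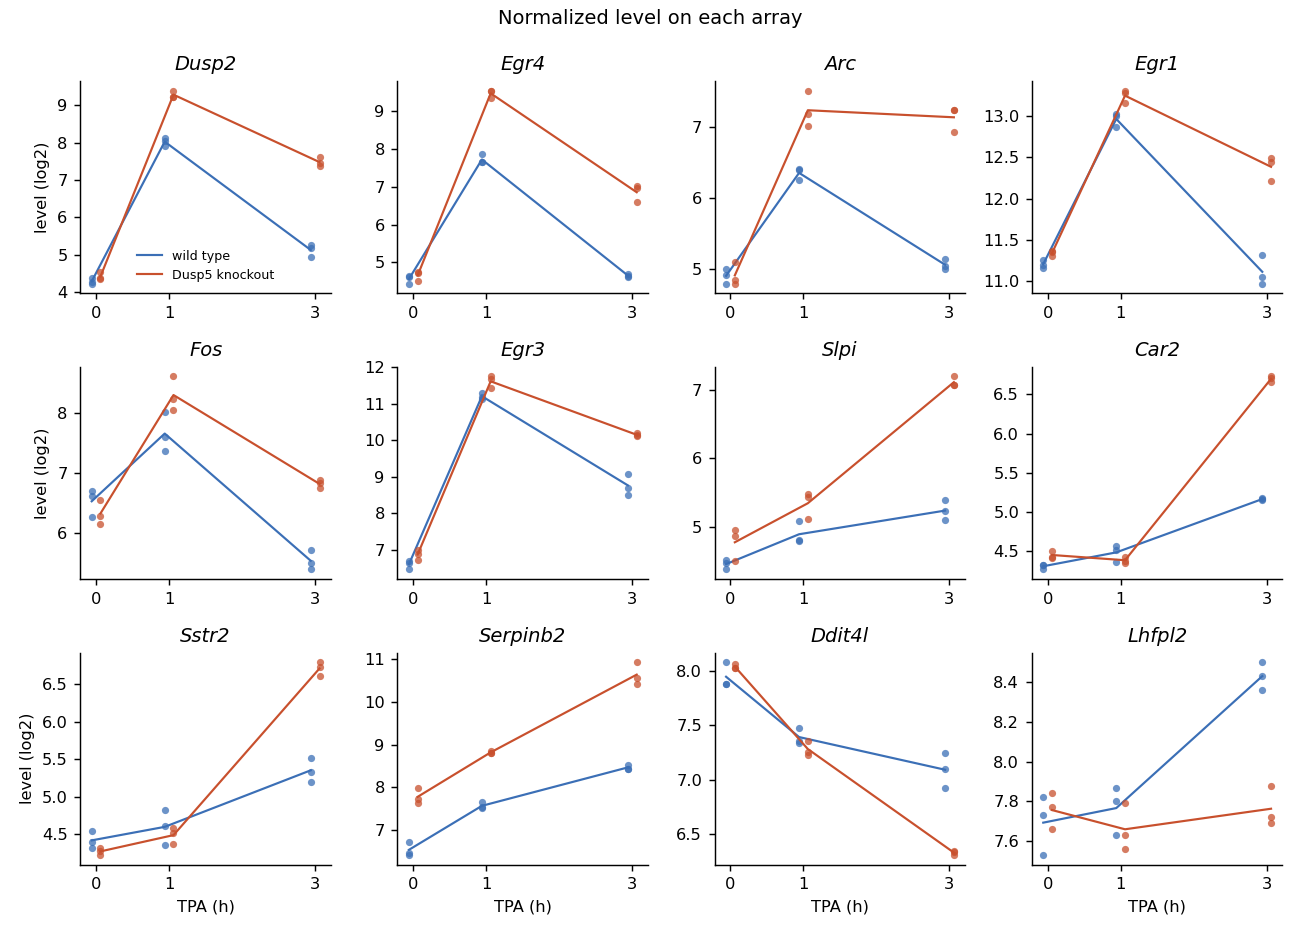
Normalized log2 level (y axis) on each array at 0, 1 and 3 h of TPA (x axis) for 12 called genes, with points for arrays and lines through the means of 3 arrays, wild type in blue and Dusp5 knockout in orange. Dusp2, Egr4, Arc, Egr1, Fos and Egr3 peak or level off from 1 h and remain higher in the knockout at 3 h, while Slpi, Car2, Sstr2 and Serpinb2 lie higher at 3 h than at 1 h, with the larger step in the knockout.

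Among genes that restrain ERK, Dusp2, which encodes another nuclear phosphatase of ERK, had the largest difference of all tested genes in the main processing. Egr1 and Serpinb2 exceeded it in the deposited normalized values and without background correction, and Egr4 did with array weights. Its level was 4.37, 4.27 and 4.23 in untreated wild type and 4.38, 4.35 and 4.53 in untreated knockout, not detected on any of these arrays. At 3 h it was 5.18, 5.26 and 4.95 in wild type and 7.61, 7.37 and 7.46 in the knockout. The untreated ranges overlapped and the 3 h ranges were far apart. The rise was at least 1.44-fold in wild type and at least 7.07-fold in the knockout, where the bound sets the 3 h level against the lowest level of detected probes. The responses differed by 2.21 ± 0.14 (log2, adjusted p = 1.70e-08), and the 3 h level was 5.08-fold higher in the knockout. At 1 h both genotypes were high, at 8.12, 8.04 and 7.92 against 9.23, 9.39 and 9.23, and between 1 h and 3 h the level fell by 2.89 in wild type and fell by 1.80 in the knockout. A second Dusp2 probe was also called (1.57 ± 0.20).

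The other feedback genes did not pass the test. Of 15 tested members of the ERK feedback list only Dusp2 was called, where 0.358% of all genes were called. The list median difference was 0.20 against −0.02 over all genes. Of the 15 members 12 were above 0, as were 5014 of all 10902 genes. Dusp6, the cytoplasmic ERK phosphatase, changed by 0.79 in wild type and 0.69 in the knockout, a difference of −0.10 (95% interval −0.47 to 0.28, adjusted p = 0.887). That was its brightest probe, and 2 dimmer Dusp6 probes gave 0.44 ± 0.23 and 0.02 ± 0.21, neither called. Dusp4, a further nuclear phosphatase, gave 0.20 ± 0.17, Spry4, a Sprouty inhibitor of receptor signalling, 0.24 ± 0.22, and Spred2, an inhibitor of Ras signalling, 0.38 ± 0.21. Dusp1, a phosphatase of stress kinases and ERK, fell by 1.82 in wild type and fell by 1.55 in the knockout.

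Immediate early transcription factors held the largest number of called genes of any list. Of 27 tested, 6 were called higher and none lower, against 0.275% and 0.0826% of all genes, and the list median was 0.25 against −0.02 over all genes. The called members were 3 Egr genes, 2 Fos genes and Csrnp1.

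Egr4, a zinc-finger factor, lay at 4.63, 4.61 and 4.44 in untreated wild type and 4.72, 4.74 and 4.51 in untreated knockout, and at 4.62, 4.64 and 4.70 in wild type against 6.59, 7.02 and 6.97 in the knockout at 3 h. Wild type was thus near its starting level, with 1 of 3 arrays detected both before and at 3 h and a response that was not called (0.10), while every knockout array stayed clearly above its own. The difference was 2.11 ± 0.16 (adjusted p = 1.44e-07). At 1 h Egr4 had reached 7.65 to 7.86 in wild type and 9.36 to 9.55 in the knockout.

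Egr1, the best-known member of this family, was a bright gene. At 3 h it too was near its starting level in wild type and above it in the knockout. Its level was 11.20, 11.26 and 11.16 in untreated wild type and 11.30, 11.37 and 11.35 in untreated knockout. At 3 h it was 11.05, 11.32 and 10.97 in wild type and 12.22, 12.45 and 12.49 in the knockout. The wild-type arrays at 3 h spanned their starting range and the knockout arrays did not reach down to theirs. The untreated arrays of the genotypes did not overlap either, by a much smaller gap. The difference was 1.15 ± 0.14 (adjusted p = 1.49e-04). At 1 h it was 0.15 and, unlike that of Egr4, not called, with levels of 12.87 to 13.03 and 13.16 to 13.31.

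Egr3 was still raised at 3 h in both genotypes. It went from 6.64, 6.47 and 6.71 to 8.70, 9.08 and 8.51 in wild type and from 6.72, 7.01 and 6.90 to 10.11, 10.20 and 10.13 in the knockout. The 3 h arrays of the genotypes did not overlap, and neither did the untreated ones, by a much smaller gap. The difference was 1.12 ± 0.18 (adjusted p = 0.00315). A dimmer Egr3 probe was not called (−0.21 ± 0.26), and with the mean of all kept probes the gene missed the threshold (adjusted p = 0.42).

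Fos, the founding AP-1 subunit, fell below its starting level in wild type. It was 6.27, 6.62 and 6.69 before and 5.72, 5.49 and 5.39 at 3 h in wild type, and 6.15, 6.28 and 6.54 before and 6.83, 6.74 and 6.88 at 3 h in the knockout. All wild-type arrays at 3 h lay below, and all knockout arrays above, their untreated arrays. The difference was 1.49 ± 0.23 (adjusted p = 0.0025), made of −0.99 in wild type and 0.50 in the knockout, and it was 0.68 in the deposited normalized values (adjusted p = 0.0418). Fosb, a further AP-1 subunit, lay between 4.88 and 5.06 before TPA in both genotypes, and reached 5.90, 5.65 and 5.65 in wild type and 6.66, 7.02 and 6.84 in the knockout, a difference of 1.09 ± 0.17 (adjusted p = 0.0025).

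Csrnp1, a nuclear protein gene of the immediate early class, was the one higher gene whose knockout response was not called. It went from 9.73, 9.65 and 9.62 to 9.11, 8.98 and 9.15 in wild type and from 10.03, 9.94 and 9.97 to 10.06, 10.03 and 9.98 in the knockout. Wild type had dropped below its starting arrays and the knockout had not. The difference was 0.63 ± 0.12 (adjusted p = 0.0134), but it missed the threshold without untreated knockout array 3 (0.62, adjusted p = 0.052) or wild-type 3 h array 2 (0.58, adjusted p = 0.0562), and in a fit of the 12 arrays alone (adjusted p = 0.054).

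The other 21 tested members of the list were not called. Id2, an inhibitor of helix-loop-helix factors, had the largest value among them, 0.72 ± 0.22 (adjusted p = 0.229). Junb, an AP-1 subunit, gave 0.57 ± 0.16, Fosl2, another one, 0.62 ± 0.16 and Atf3, a stress-induced factor, 0.56 ± 0.22. Values below 0 were found for Jun at −0.24 ± 0.17, Myc at −0.17 ± 0.21 and Klf2 at −0.36 ± 0.16. Egr2, in the same family as the called Egr genes, gave 0.07 ± 0.13, with responses of 0.55 in wild type and 0.62 in the knockout.

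Arc, which encodes a cytoskeleton-associated protein known from neuronal activity, was near its starting level at 3 h in wild type and near its 1 h level in the knockout. It was 5.0, 4.79 and 4.91 in untreated wild type and 5.09, 4.79 and 4.84 in untreated knockout, and 5.04, 5.14 and 4.99 against 7.24, 6.94 and 7.25 at 3 h. The knockout arrays at 3 h lay apart from all others of these groups, and at 1 h they had read 7.19, 7.02 and 7.52. The difference was 2.08 ± 0.17 (adjusted p = 4.07e-07). From 1 h to 3 h Arc fell by 1.30 in wild type and fell by 0.10 in the knockout.

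Cytokine and growth factor genes were represented by Il1a, Il11, Ccl4 and Gdnf, of which Gdnf was named after its values were seen. Il1a, the interleukin-1 alpha gene, was 4.34, 4.32 and 4.62 in untreated wild type and 4.75, 4.53 and 4.63 in untreated knockout, detected on 1 array of each. At 3 h it was 5.11, 4.94 and 5.12 against 6.95, 6.44 and 6.55. All treated arrays exceeded the untreated ones, and the knockout arrays stood above the wild-type arrays by more than 1 log2 unit. The difference was 1.38 ± 0.17 (adjusted p = 1.96e-04), and a second probe was also called (1.02 ± 0.13).

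Il11, a cytokine of the gp130 family, rose strongly in both genotypes. It went from 7.04, 6.68 and 6.87 to 8.99, 9.04 and 9.09 in wild type and from 7.17, 7.0 and 6.97 to 10.11, 10.0 and 10.21 in the knockout. Untreated arrays overlapped and 3 h arrays did not. The difference was 0.88 ± 0.15 (adjusted p = 0.00768), for rises of 4.52-fold and 8.34-fold.

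Gdnf, a neurotrophic factor gene, was near its starting level in wild type, at 5.83, 6.03 and 5.69 from 5.98, 6.02 and 5.82, and up in the knockout, at 7.29, 7.10 and 7.10 from 6.15, 6.39 and 6.03. The difference was 1.06 ± 0.17 (adjusted p = 0.00267). The chemokine gene Ccl4 gave 0.76 ± 0.16 (adjusted p = 0.0389), with a knockout minus wild-type value of −0.38 before TPA and 0.38 at 3 h. It was called in 1 of 12 fits that left out an array, with adjusted p up to 0.106, and a dimmer Ccl4 probe was not called (0.22 ± 0.21).

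The wider lists held few of these. Of 23 growth factors and cytokines 1 was called (Il11, list median 0.18), where 0.358% of all genes were called, and of 29 inflammatory and NF-kB genes 2 were called (Il1a and Ccl4, median 0.02). Just outside the threshold lay Il33, an interleukin-1 family alarmin (0.70 ± 0.15, adjusted p = 0.0549), and Csf2, the GM-CSF gene (0.65 ± 0.15, adjusted p = 0.0617). Just inside were Tmcc3, Plau and Xirp2, with adjusted p of 0.0402 to 0.0426.

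**Figure D3:**
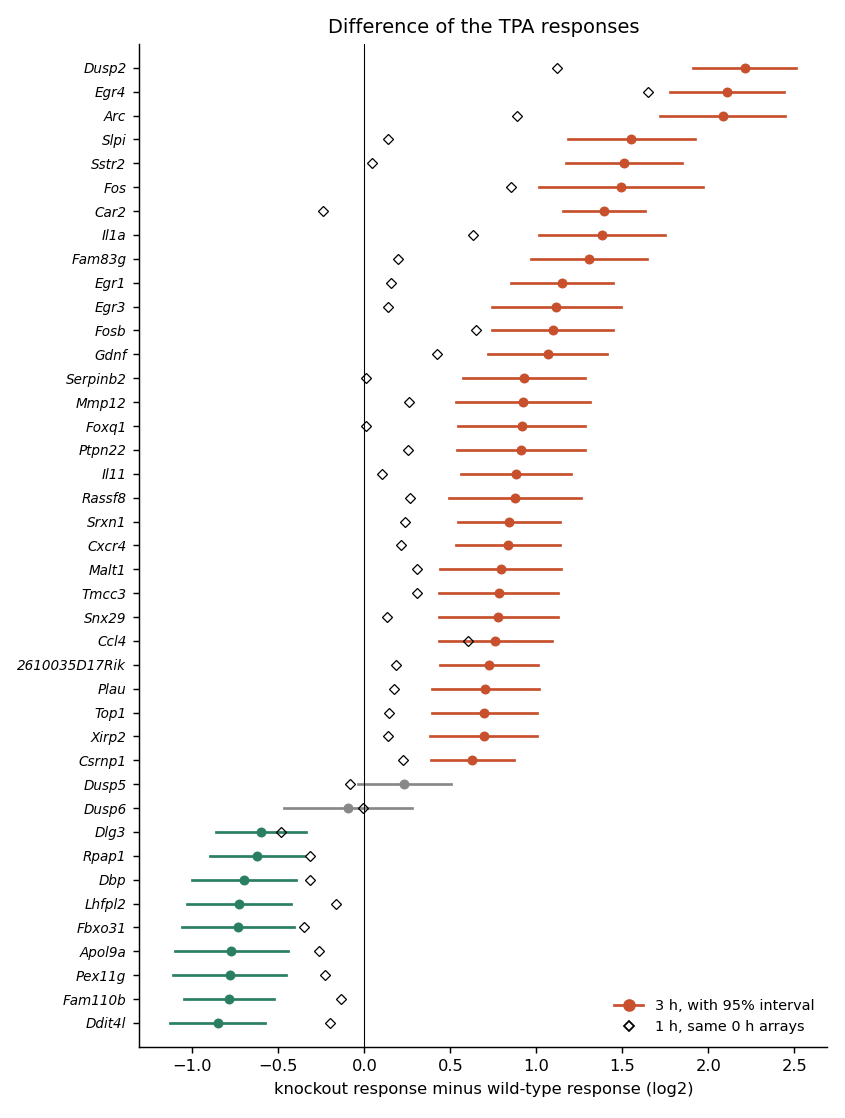
Difference of the 3 h responses (knockout minus wild type, log2, x axis) for the 39 called genes and for Dusp5 and Dusp6 (grey), with 95% intervals, orange for higher and green for lower. Open diamonds give the difference of the 1 h responses, which uses the same untreated arrays, and lie nearer to 0 for most genes.

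In the plasminogen and protease system 3 of 18 tested genes were called, all higher, against 0.275% of all genes called higher, with a list median of 0.14 against −0.02. Serpinb2 encodes the plasminogen activator inhibitor PAI-2 and was the one gene already called higher before TPA. Its level was 6.73, 6.48 and 6.42 in untreated wild type and 7.72, 7.98 and 7.64 in untreated knockout. At 3 h it was 8.43, 8.53 and 8.44 against 10.92, 10.41 and 10.56. Knockout arrays lay above wild-type arrays at both times, and the gap grew from 1.24 to 2.17. The difference in response was 0.93 ± 0.17 (adjusted p = 0.0134). At 1 h the gap was 1.25. The call was lost without untreated knockout array 3 (0.86, adjusted p = 0.0565) and in a fit of the 12 arrays alone (adjusted p = 0.054).

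Plau, the urokinase gene, went from 8.52, 8.72 and 8.93 to 9.43, 9.54 and 9.62 in wild type and from 8.62, 8.58 and 8.46 to 9.90, 10.16 and 10.13 in the knockout. It rose in both and more in the knockout, by 0.70 ± 0.15 (adjusted p = 0.0406), a call kept in 2 of 12 fits that left out an array (adjusted p up to 0.146). Mmp12, a macrophage elastase gene, gave 0.92 ± 0.19 (adjusted p = 0.0343), with 0.09 in wild type and 1.01 in the knockout, and was called in 3 of those 12 fits (up to 0.104). Slpi, which encodes a secreted inhibitor of neutrophil elastase, was 4.48, 4.39 and 4.53 before and 5.23, 5.11 and 5.39 at 3 h in wild type. In the knockout it was 4.51, 4.88 and 4.96 before and 7.19, 7.06 and 7.07 at 3 h. Slpi was detected on no untreated wild-type array and on 2 of 3 untreated knockout arrays, so wild type rose at least 1.55-fold. The knockout rise was the larger, by 1.55 ± 0.18 (adjusted p = 5.60e-05), and most of it came after 1 h, when the knockout arrays read 5.44, 5.12 and 5.49.

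Other called genes encode enzymes, receptors and signalling proteins. Car2, a carbonic anhydrase gene, was not detected on any array at 0 h or 1 h. At 3 h it was 5.18, 5.17 and 5.15 in wild type and 6.66, 6.71 and 6.73 in the knockout. The arrays of each genotype lay close together and the genotypes were far apart. The rise was at least 1.47-fold in wild type and at least 4.12-fold in the knockout, and the difference was 1.39 ± 0.11 (adjusted p = 4.07e-07). Sstr2, a somatostatin receptor gene, was undetected at 0 h in both genotypes and reached 5.33, 5.52 and 5.20 in wild type and 6.73, 6.6 and 6.79 in the knockout. It rose at least 1.67-fold and at least 4.14-fold, with a difference of 1.51 ± 0.16 (adjusted p = 2.38e-05).

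Fam83g, which encodes a casein kinase 1 binding protein, went from 5.18, 5.31 and 5.38 to 6.67, 6.69 and 6.84 in wild type and from 5.51, 5.5 and 5.15 to 8.19, 7.99 and 8.21 in the knockout. It rose in both, by 2.72-fold and 6.71-fold, with a difference of 1.30 ± 0.16 (adjusted p = 1.49e-04). Srxn1, the sulfiredoxin gene and a target of the antioxidant factor NRF2, went from 8.03, 7.85 and 7.88 to 10.07, 10.10 and 10.15 in wild type and from 8.16, 8.09 and 8.09 to 11.30, 10.92 and 11.19 in the knockout. The difference was 0.84 ± 0.14 (adjusted p = 0.00643), and of 2 other Srxn1 probes 1 was called. Srxn1 was the only NRF2 target called of 17 (list median 0.19), where 0.358% of all genes were called. Hmox1, the heme oxygenase gene of the same list, had a difference of −0.05 (95% interval −0.35 to 0.25).

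Like Gdnf, most of the remaining higher genes were named after their values were seen. Foxq1, a forkhead factor gene, gave 0.91 ± 0.18, Ptpn22, a tyrosine phosphatase gene of lymphocytes, 0.91 ± 0.18, and Cxcr4, the receptor of the chemokine CXCL12, 0.83 ± 0.14. Ptpn22 and Cxcr4 were detected at 3 h on all 3 knockout arrays and on no wild-type array, so the 3 h level was at least 1.56-fold and at least 1.32-fold higher. Elsewhere Ptpn22 was detected on 1 knockout array at 1 h and Cxcr4 on 1 untreated wild-type array. Both thus passed the detection filter only with the knockout 3 h arrays, and their detection pattern is no separate support. Cxcr4 and Xirp2 did not pass the stricter detection filter. Rassf8, a Ras-association domain gene, gave 0.88 ± 0.18, Malt1, a paracaspase gene that links protein kinase C to NF-kB in lymphocytes, 0.79 ± 0.17, Snx29, a sorting nexin gene, 0.78 ± 0.16, and Top1, topoisomerase I, 0.70 ± 0.15. Tmcc3, a transmembrane protein gene, gave 0.78 ± 0.17 and Xirp2, an actin-binding protein gene, 0.69 ± 0.15, and both were named by rule. Their adjusted p-values were 0.00768 for Cxcr4 and 0.0254 to 0.0426 for the others. Cxcr4 was called in all 12 fits that left out an array and the other 8 in 1 to 4 of them, with adjusted p up to 0.148. Cxcr4 was not called in the deposited normalized values (0.25, adjusted p = 0.0953), without background correction (0.26, adjusted p = 0.094), or with median scaling over all probes (adjusted p = 0.0695) or over the kept probes (adjusted p = 0.205). The other 2 Top1 probes were not called, and 1 further called gene carries only a clone name.

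The lower genes changed less. Ddit4l, an inhibitor of mTORC1 signalling, went from 8.08, 7.88 and 7.88 to 7.10, 6.93 and 7.25 in wild type and from 8.03, 8.06 and 8.03 to 6.34, 6.31 and 6.35 in the knockout. It fell in both genotypes and further in the knockout, with a difference of −0.85 ± 0.13 (adjusted p = 0.00255). Fam110b, a centrosome-associated protein gene, went from 7.37, 7.38 and 7.37 to 6.30, 6.47 and 6.51 in wild type and from 7.49, 7.55 and 7.57 to 5.82, 5.68 and 5.88 in the knockout. Its difference was −0.79 ± 0.13 (adjusted p = 0.00315), while a second probe was not called (−0.29 ± 0.17).

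Lhfpl2, a tetraspan membrane protein gene, rose in wild type only by the test. It went from 7.73, 7.82 and 7.53 to 8.36, 8.43 and 8.50 in wild type and from 7.84, 7.66 and 7.77 to 7.88, 7.69 and 7.72 in the knockout. The wild-type arrays moved above their start and the knockout arrays overlapped theirs, for a difference of −0.73 ± 0.14 (adjusted p = 0.029). Pex11g, a peroxisomal membrane protein gene, moved in opposite directions, from 5.38, 5.24 and 5.08 to 5.6, 5.47 and 5.80 in wild type and from 5.67, 5.52 and 5.64 to 5.25, 5.16 and 5.23 in the knockout. Both changes were called, at 0.39 and −0.39, as in 2 genes of all tested, Fos being the other, and the difference was −0.78 ± 0.16 (adjusted p = 0.0342).

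Dbp, a clock output factor, was the one called of 13 circadian genes, where 0.358% of all genes were called. It went from 7.18, 7.44 and 7.35 to 7.10, 7.05 and 7.14 in wild type and from 7.56, 7.66 and 7.69 to 6.69, 6.72 and 6.71 in the knockout. The difference was −0.70 ± 0.15 (adjusted p = 0.0392), and the knockout minus wild-type value was 0.31 before TPA and −0.39 at 3 h. Arntl, the core clock factor BMAL1, gave 0.45 ± 0.15 and was not called. The other 4 lower genes were Apol9a, an apolipoprotein L gene (−0.77 ± 0.16), Fbxo31, an F-box protein gene (−0.74 ± 0.15), Rpap1, an RNA polymerase II associated protein gene (−0.62 ± 0.13), and Dlg3, a membrane scaffold gene (−0.60 ± 0.12), with adjusted p of 0.0343 to 0.0402. The other 2 probes of Fbxo31 were below 0 and not called (−0.29 ± 0.17 and −0.53 ± 0.17). Those of Rpap1 differed in sign and were not called (0.43 ± 0.15 and −0.07 ± 0.21), and with the mean of its kept probes Rpap1 gave −0.09 (adjusted p = 0.804). Of the 9 lower genes only Ddit4l and Fam110b were called in all 12 fits that left out an array, the others in 1 to 5 with adjusted p up to 0.129.

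**Figure D4:**
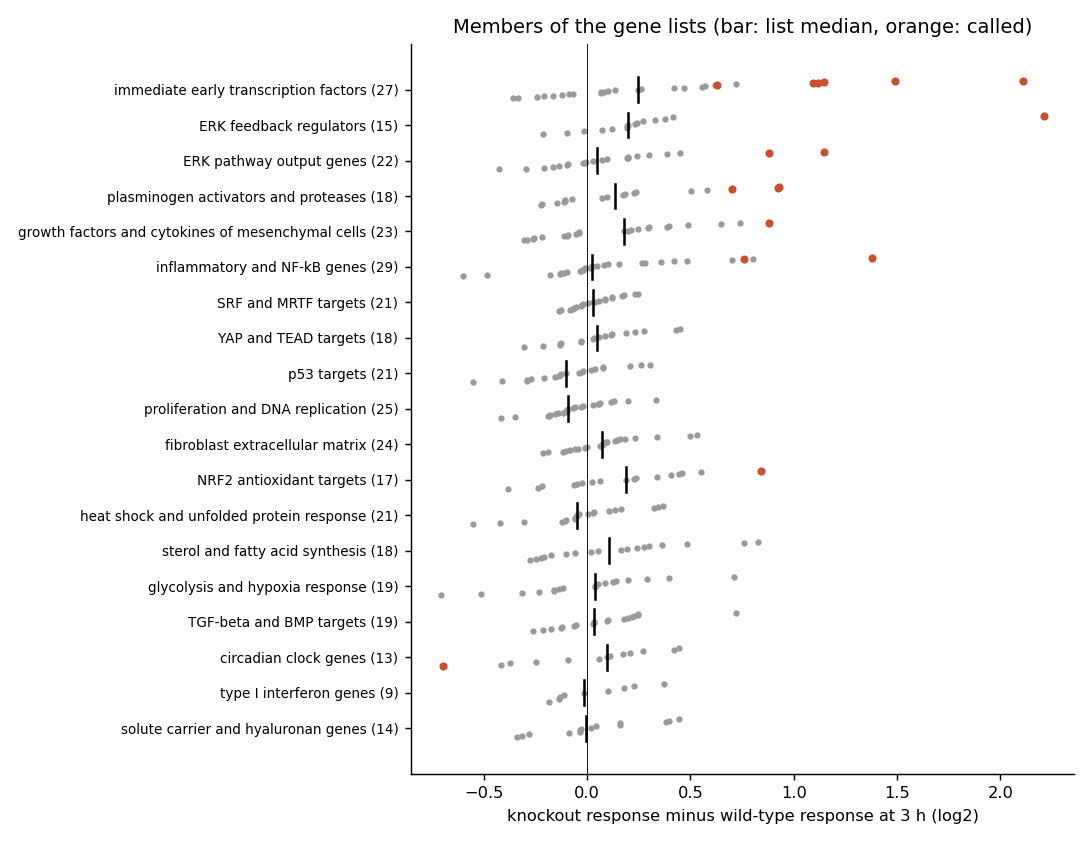
Difference of the 3 h responses (log2, x axis) for each tested member of 19 gene lists (number tested in parentheses), with called genes in orange and a bar at each list's median. Called genes lie in the immediate early, ERK, protease, cytokine, inflammatory and antioxidant lists on the right and Dbp in the circadian list on the left.

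The other 11 lists had no called member by limma, and 15 higher and 9 lower of their 209 tested entries had an unadjusted p under 0.05. They included 21 SRF and MRTF targets (median 0.03), 18 YAP and TEAD targets (0.05), 24 extracellular matrix genes (0.07), 21 p53 targets (−0.10) and 25 proliferation genes (−0.09). The ERK output list is not among these 11. Of its 22 tested genes 2 were called, Egr1 and Il11 (median 0.05), where 0.358% of all genes were called.

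Some of the strongest responders to TPA were called. Of the 10 genes raised most on average 4 were called (Egr3, Il11, Srxn1 and Ccl4), against 2.07% of all raised genes and 0.358% of all genes. Of the 10 lowered most none was called, against 0.46% of all lowered genes, at a smallest adjusted p of 0.438 by limma. An unadjusted p under 0.05 was found for 2 of these 10. This ranking was chosen after values were seen, and its mean includes the knockout response. Angptl4, a lipase inhibitor gene, rose by 2.86 and 2.82 (difference −0.04, 95% interval −0.30 to 0.22), and Pdgfb, a growth factor gene, by 3.13 and 3.42 (0.30, −0.08 to 0.67). Mmp10, a stromelysin gene, had 0.50 (0.22 to 0.78) and missed the threshold at adjusted p = 0.157. Edn1, the endothelin-1 gene, fell by 3.76 and fell by 4.07 (−0.30, −0.62 to 0.01), and Ankrd1, an ankyrin repeat gene, differed by 0.12 (−0.17 to 0.41). Wild-type Edn1 at 3 h read 4.68, 4.68 and 4.67, near the background of those arrays (4.645 to 4.68). Knockout Edn1 read 4.87, 4.97 and 4.73, so both falls may be understated and their difference is uncertain.

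**Figure D5:**
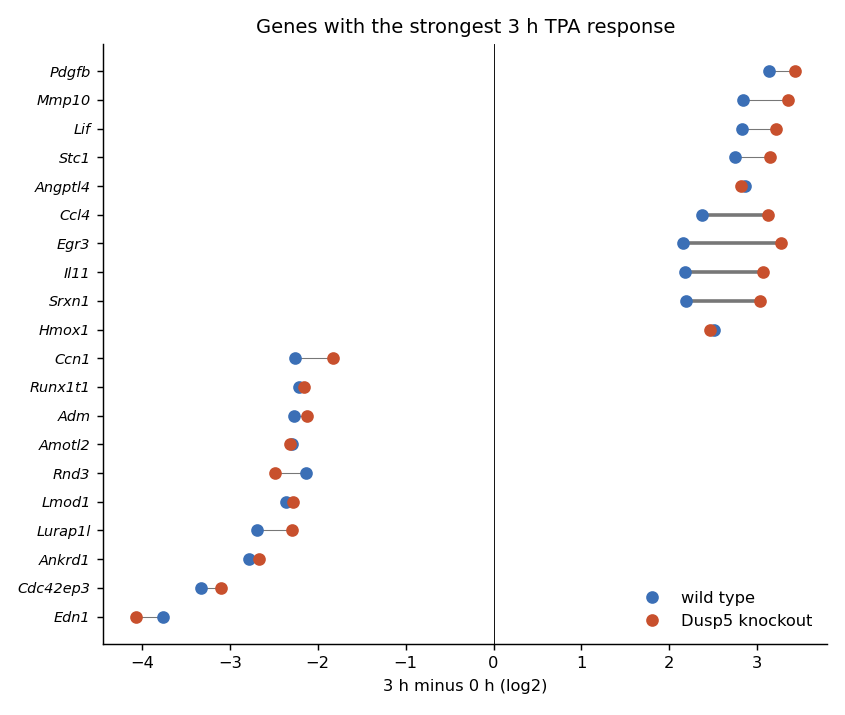
3 h minus 0 h change (log2, x axis) in wild type (blue) and Dusp5 knockout (orange) for the 10 most raised and 10 most lowered genes by the mean of both genotypes, joined by a thick line where the difference was called. The 4 called genes have knockout changes of 3.03 to 3.27 against 2.15 to 2.37 in wild type, and for the 10 lowered genes knockout minus wild type is −0.35 to 0.43.

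RefSeq promoter windows (GRCm38.p6, 250 bases before to 50 after a transcription start) were matched by gene ID for 21 of the 30 higher genes, 8 of the 9 lower genes and 8819 tested genes. The AP-1 motif TGANTCA, which reads the same on both strands, was found in 9 of the 21 higher genes (42.9%), in 1 of 8 lower genes, in 8.85% of the genes raised on average and in 6.71% of all tested genes. Counted by window, since genes can have several starts, it was in 31.4% of 35 windows of higher genes and 5.61% of all 11291. The 9 genes were Csrnp1, Il11, Il1a, Mmp12, Serpinb2, Snx29, Srxn1, Tmcc3 and Xirp2. The EGR core GCGTGGG, on either strand, was in 14.3% of the higher genes and 9.81% of all, the NF-kB site in 23.8% and 12.1%, the CRE in 4.76% and 3.47% and the CArG box in 4.76% and 1.86%. These are matches of letters in a short window, given as a description and without a test. The 4 windows below are examples from genes called by values given above, each a window with the AP-1 match, which is in capitals. Another Il11 window has no AP-1 match, and another Serpinb2 window has it 181 bases before its start. Windows of the other genes with the match are not shown.
Il11: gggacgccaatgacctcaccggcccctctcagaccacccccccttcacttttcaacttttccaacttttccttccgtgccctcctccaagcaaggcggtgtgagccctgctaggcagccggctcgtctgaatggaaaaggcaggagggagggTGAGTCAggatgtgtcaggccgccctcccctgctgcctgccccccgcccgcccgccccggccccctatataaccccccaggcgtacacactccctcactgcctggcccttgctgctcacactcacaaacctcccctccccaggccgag
Il1a: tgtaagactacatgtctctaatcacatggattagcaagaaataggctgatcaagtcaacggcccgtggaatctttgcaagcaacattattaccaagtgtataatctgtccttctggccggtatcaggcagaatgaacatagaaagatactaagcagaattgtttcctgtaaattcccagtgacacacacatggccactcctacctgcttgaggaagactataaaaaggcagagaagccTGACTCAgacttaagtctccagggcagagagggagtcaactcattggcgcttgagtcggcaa
Srxn1: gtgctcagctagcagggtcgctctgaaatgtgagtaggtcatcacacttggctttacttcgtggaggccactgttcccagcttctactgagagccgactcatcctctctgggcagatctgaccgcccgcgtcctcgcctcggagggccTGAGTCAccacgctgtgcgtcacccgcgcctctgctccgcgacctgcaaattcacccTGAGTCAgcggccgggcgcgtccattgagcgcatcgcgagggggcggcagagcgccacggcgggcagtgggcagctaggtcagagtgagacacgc
Serpinb2: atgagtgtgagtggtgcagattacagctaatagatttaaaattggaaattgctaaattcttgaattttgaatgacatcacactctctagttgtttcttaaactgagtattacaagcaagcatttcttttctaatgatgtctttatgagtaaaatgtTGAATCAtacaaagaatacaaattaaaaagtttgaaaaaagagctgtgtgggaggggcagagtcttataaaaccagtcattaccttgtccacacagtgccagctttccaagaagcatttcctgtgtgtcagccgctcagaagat
Their positions are chr7:4778092-4778391 on the minus strand for Il11, chr2:129309923-129310222 on the minus strand for Il1a, chr2:152105274-152105573 on the plus strand for Srxn1 and chr1:107511173-107511472 on the plus strand for Serpinb2. The match began 98 bases before the start in Il11, 12 in Il1a, 102 and 45 in Srxn1 and 94 in Serpinb2.

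The size of a difference for dim genes depended on background correction. In the deposited normalized values it was 1.04 for Dusp2, 0.83 for Egr4, 0.91 for Arc, 0.65 for Sstr2 and 0.57 for Car2, each still called. For the bright gene Egr1 it was 1.12. Of the 39 genes 30 were called there, and Mmp12, Ptpn22, Cxcr4, Malt1, Tmcc3, Snx29, Xirp2, Apol9a and Pex11g were not, with adjusted p of 0.0572 to 0.212. Called in every alternative and without any single array were 14 genes: Dusp2, Egr4, Arc, Slpi, Sstr2, Fos, Car2, Il1a, Fam83g, Egr1, Fosb, Gdnf, Il11 and Srxn1.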

How the data were processed

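Per the file headers, the deposited non-normalized table holds 2 columns per array, the bead intensity and the detection p-value of every probe. The authors also deposited normalized log2 values in the series matrix, used as an alternative. They rank probes as the intensities do (rank correlation 1), with a median of 6.73 on every array. The software that made either table is not given in the sources used here.

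Intensities were background corrected from the detection p-values, quantile normalized and log2 transformed with an offset of 16 (neqc, limma 3.58.1, R 4.3.3). Probes with detection p below 0.05 on at least 3 of 18 arrays were kept (20239). Of these 17288 had 1 symbol and 2951 were not named. A gene is its brightest kept probe. Group means of 6 groups were fitted over 18 arrays (12 residual degrees of freedom) and the difference of responses was tested with limma's moderated test, adjusted over 10902 genes by Benjamini and Hochberg. With 3 arrays per group the number of arrays limits the precision (median standard error 0.169).

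Members and lists were chosen with earlier results of these data known. Always named were Dusp5, Serpinb2, Fos, Egr1 and Dusp6. Named by rule were the 12 largest called differences in each direction, up to 4 called members of each list and up to 3 called genes in each class of difference and mean response. Genes with clone names were counted only. The rule named 32 genes, Dusp5 and Dusp6 included, and 8 further called genes were named after their values were seen.

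The model and calling were tested on simulated data. A difference of 0.25 (log2) was recovered in 0% of the shifted genes, 0.5 in 22%, 1 in 88% and 2 in 100%, and 6.25% of calls were false. A gene that was not called may therefore still differ. Alternatives were the source of the values, background correction, scaling, detection filter, probe rule, variance model, arrays fitted, a replicate block, a fold threshold and leaving out each array. Motifs were searched and plots drawn in Python 3.11.15.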

Additional observations from a re-analysis of the deposited data

Results flagged for a closer look

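All 39 called genes are listed because the test of the difference between the genotypes' 3 h responses passed its threshold (limma, adjusted over 10902 genes). The value after each gene is knockout response minus wild-type response in log2 units. The largest positive differences were in Dusp2 (2.21), Egr4 (2.11), Arc (2.08), Slpi (1.55), Sstr2 (1.51), Fos (1.49), Car2 (1.39), Il1a (1.38), Fam83g (1.30) and Egr1 (1.15). Next came Egr3 (1.12), Fosb (1.09), Gdnf (1.06), Serpinb2 (0.93), Mmp12 (0.92), Foxq1 (0.91), Ptpn22 (0.91), Il11 (0.88) and Rassf8 (0.88). The remaining higher genes were Srxn1 (0.84), Cxcr4 (0.83), Malt1 (0.79), Tmcc3 (0.78), Snx29 (0.78), Ccl4 (0.76), Plau (0.70), Top1 (0.70), Xirp2 (0.69) and Csrnp1 (0.63), and a gene with a clone name only had 0.72. The 9 lower genes were Dlg3 (−0.60), Rpap1 (−0.62), Dbp (−0.70), Lhfpl2 (−0.73), Fbxo31 (−0.74), Apol9a (−0.77), Pex11g (−0.78), Fam110b (−0.79) and Ddit4l (−0.85). No cause was weighed for any of these differences.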

How the results depend on the processing

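Each of the 39 called genes kept its direction in every alternative in which it was tested. Dusp6, not called in any, was 0.24 with median scaling over all probes and 0.12 with the mean of its kept probes, against −0.10. The number of called genes, 39, was 59 in the deposited normalized values and 59 with quantile normalization without background correction, with 21 lower genes in both. It was 82 with array weights, 58 higher and 24 lower, and 24 in a fit of the 12 arrays at 0 h and 3 h, 4 of them lower. Median scaling over all probes gave 36 higher and 0 lower genes, and scaling over the kept probes 27 in all with 19 higher. The genes raised on average, 1303, were 469 and 2035 under these scalings, and the 1522 lowered were 4541 with scaling over all probes. The settings for the mean response were chosen after seeing the data. The cause was not tested.

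Leaving out 1 array gave 19 to 40 called genes, 17 to 31 higher and 2 to 10 lower, with 1174 to 1308 raised and 1312 to 1501 lowered on average. The count moved by over 1.5 times without untreated arrays 3 of wild type (24) and knockout (19), without wild-type 3 h arrays 1 (24), 2 (24) and 3 (22), and without knockout 3 h arrays 2 (25) and 3 (22). Of the 39 genes 18 were called in all 12 of these fits and 14 in every alternative as well. Same-numbered arrays deviated together in 6 of 18 pairs (correlation above 0.1, range −0.05 to 0.32), and 8 of 18 correlated best with their own number, so the numbers were not taken as pairing over the 4 groups. Untreated wild type and knockout at 3 h were the one pair of groups with all 3 correlations above 0.1 (0.14 to 0.32). With the replicate block 46 genes were called, 35 higher, and Tmcc3 was the one of the 39 not called (adjusted p = 0.0588). Genes near background have only lower bounds for their folds.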
